A study of Mus musculus with 8 samples.

Results

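H19, Igf2, Meg3, Rian, Mirg, Dlk1, Cdkn1c, Grb10, Peg3 and Plagl1 are imprinted genes that set fetal growth or carry microRNA (miRNA) hairpins. Their levels were read in embryonic hearts with and without a conditional deletion of Dgcr8. The 10 genes were chosen by name from a table of 24385 features, each had 1 row in it, and all 10 were among the 10018 genes tested. RNA was sequenced from mouse hearts of strain C57BL/6 at embryonic day (E) 8.5 and E9.5. Each stage had 2 libraries from hearts labelled WT and 2 from Dgcr8 conditional knockout (cKO) hearts, which gave 4 groups. The labels call the controls wild type, while the study describes its control embryos as Dgcr8 loxP/loxP; Rosa26 mT/mG/+ without Cre. The cKO embryos carried 1 Mesp1Cre allele (Mesp1Cre/+) beside the same floxed Dgcr8 and Rosa26 reporter alleles, so the Cre allele itself also differed between the genotypes. Cre was driven by Mesp1, a gene of early cardiovascular mesoderm, so heart cells of other origin kept Dgcr8. Values are FPKM (fragments per kilobase of transcript, scaled to the mapped fragments of each library), which are per length and can be compared between genes.

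Imprinted genes are transcribed mainly from the allele of 1 parent, and many of them act on growth of the embryo and placenta. Igf2, Dlk1, Peg3 and Plagl1 are expressed from the paternal allele, while H19, Meg3, Rian, Mirg and Cdkn1c are expressed from the maternal allele. Grb10 is maternally expressed in most tissues. H19 and Igf2 are neighbours that share enhancers and a methylated control region. Dlk1, Meg3, Rian and Mirg lie in the Dlk1-Dio3 domain. There the maternal chromosome is transcribed into long noncoding RNAs (lncRNAs) that hold miRNA and small nucleolar RNA genes. DGCR8 is the RNA-binding partner of the nuclease DROSHA, and together they cut miRNA hairpins out of such primary transcripts.

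The hosts were identified by position. Of the 10 genes, 5 contained at least 1 RefSeq miRNA hairpin, and all 16 hairpins lay on the strand of their host. Mirg contained 10, Rian 3, and H19, Igf2 and Meg3 1 each. Mir1906-1, another table entry inside Meg3, is not counted among these. Another 43 hairpins lay between Meg3 and Mirg outside Rian. The table entries Mir666 and Mir544 in this interval are likewise not counted. The mature sequences below (RefSeq, GRCm38.p6) are shown because they are the products that the host transcripts would yield, with bases 2 to 8, the seed that pairs with target messages, in capitals. MiR-541-5p, from Mirg, is the miRNA that the study followed in heart cells.
mmu-miR-541-5p (Mirg): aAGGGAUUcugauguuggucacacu
mmu-miR-154-5p (Mirg): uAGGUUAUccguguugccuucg
mmu-miR-377-3p (Mirg): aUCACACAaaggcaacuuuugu
mmu-miR-409-3p (Mirg): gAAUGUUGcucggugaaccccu
mmu-miR-369-3p (Mirg): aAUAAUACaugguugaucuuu
mmu-miR-410-3p (Mirg): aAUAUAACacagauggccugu
mmu-miR-453 (Mirg): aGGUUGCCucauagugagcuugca
mmu-miR-496a-5p (Mirg): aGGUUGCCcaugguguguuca
mmu-miR-370-3p (Rian): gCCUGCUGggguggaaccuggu
mmu-miR-770-5p (Meg3): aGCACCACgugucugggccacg
mmu-miR-675-5p (H19): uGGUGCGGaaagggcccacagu
mmu-miR-675-3p (H19): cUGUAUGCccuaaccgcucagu
mmu-miR-483-3p (Igf2): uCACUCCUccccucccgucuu
Of the 110 mature miRNAs of the hosts and of the interval between Meg3 and Mirg, seeds were mostly different: 101 seeds were distinct, and 9 were shared by a pair of mature miRNAs. Within Mirg, miR-453 and miR-496a-5p shared the seed GGUUGCC. MiR-541-5p lies at chr12:109742422-109742446 on the plus strand, inside Mirg. None of these mature miRNAs was measured here. All 16 table entries of the hosted hairpins, and all 61 miRNA entries of the Dlk1-Dio3 domain, were listed at 0 FPKM in all 8 libraries, so the values below are those of the long host transcripts.

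The 4 genes of the Dlk1-Dio3 domain lie on the plus strand of chromosome 12 (coordinates of the table, GRCm38, counted from 1): Dlk1 at chr12:109452823-109463336, Meg3 at chr12:109540996-109571729, Rian at chr12:109603945-109661711 and Mirg at chr12:109734981-109749457. H19 (chr7:142575530-142578146), Igf2 (chr7:142650768-142666816), Cdkn1c (chr7:143458339-143461050) and Peg3 (chr7:6705960-6730419) lie on the minus strand of chromosome 7. Grb10 (chr11:11930499-12037420) lies on the minus strand of chromosome 11 and Plagl1 (chr10:13090788-13131695) on the plus strand of chromosome 10. Strands were taken from the GENCODE annotation. Whether fragments were counted by strand was not stated, so reads of Peg3 and its antisense RNA Peg3os (mean 25.3 FPKM), of Igf2 and Igf2os (mean 0.965 FPKM), and of Plagl1 and Hymai (mean 0.131 FPKM) may not be separate where they overlap.

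Facts of the whole series bear on every comparison below. Summed FPKM ranged from 884018 to 1944600 per library, and from 745560 to 952621 over loci of 300 bp or longer. Absolute depth was unknown, and relative depth spanned 1 to 1.45. The median tested gene stood at 7.62 to 9.90 FPKM in the E8.5 libraries and at 3.85 to 4.497 FPKM in the E9.5 libraries, so a gene with the same FPKM at both stages was high at E9.5 for its library. Dgcr8, the deleted gene, stood at 7.10 and 8.60 FPKM (WT) against 1.64 and 4.67 (cKO) at E8.5 and at 3.49 and 3.23 (WT) against 1.15 and 1.77 (cKO) at E9.5, lower in each cKO library than in each WT library of its stage (limma adjusted p = 0.59 and 0.32). All 8 cardiomyocyte markers passed the filter, with summed levels of 25785 to 80267 FPKM. Markers of tissue around the heart differed between libraries. The 7 decidual and trophoblast markers came to 497 and 1279 FPKM in total for E8.5 WT replicates 1 and 2 and to 6189 for E8.5 cKO replicate 2, against 1.91 to 12.5 for the other 5 libraries, with Ctsq at 0 throughout. The 6 uterine natural killer markers summed to 472 FPKM in E8.5 WT replicate 1 and to 0.532 to 2.44 elsewhere. The 9 yolk sac endoderm markers ranged from 829 to 7602 FPKM. The part of these tissues in the results below was not tested, and in bulk samples fewer cells of a type and less RNA per cell cannot be told apart.

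The imprinted genes spanned a wide range (plot of FPKM by library). H19, Igf2 and Grb10 had means of 417, 382 and 261 FPKM over the 8 libraries and lay above 95.6% of tested genes or more. Cdkn1c (79.1 FPKM), Meg3 (34.0 FPKM) and Peg3 (24.9 FPKM) followed, then Plagl1 (11.7 FPKM) and Dlk1 (9.24 FPKM). Rian (4.41 FPKM) and Mirg (1.91 FPKM) were low, and 16.7% of tested genes had a lower mean than Mirg. Neighbours in this order overlapped in their library ranges, except that Grb10, at 150 FPKM or more, lay above Cdkn1c, at 129 FPKM or less.

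**Figure D1:**
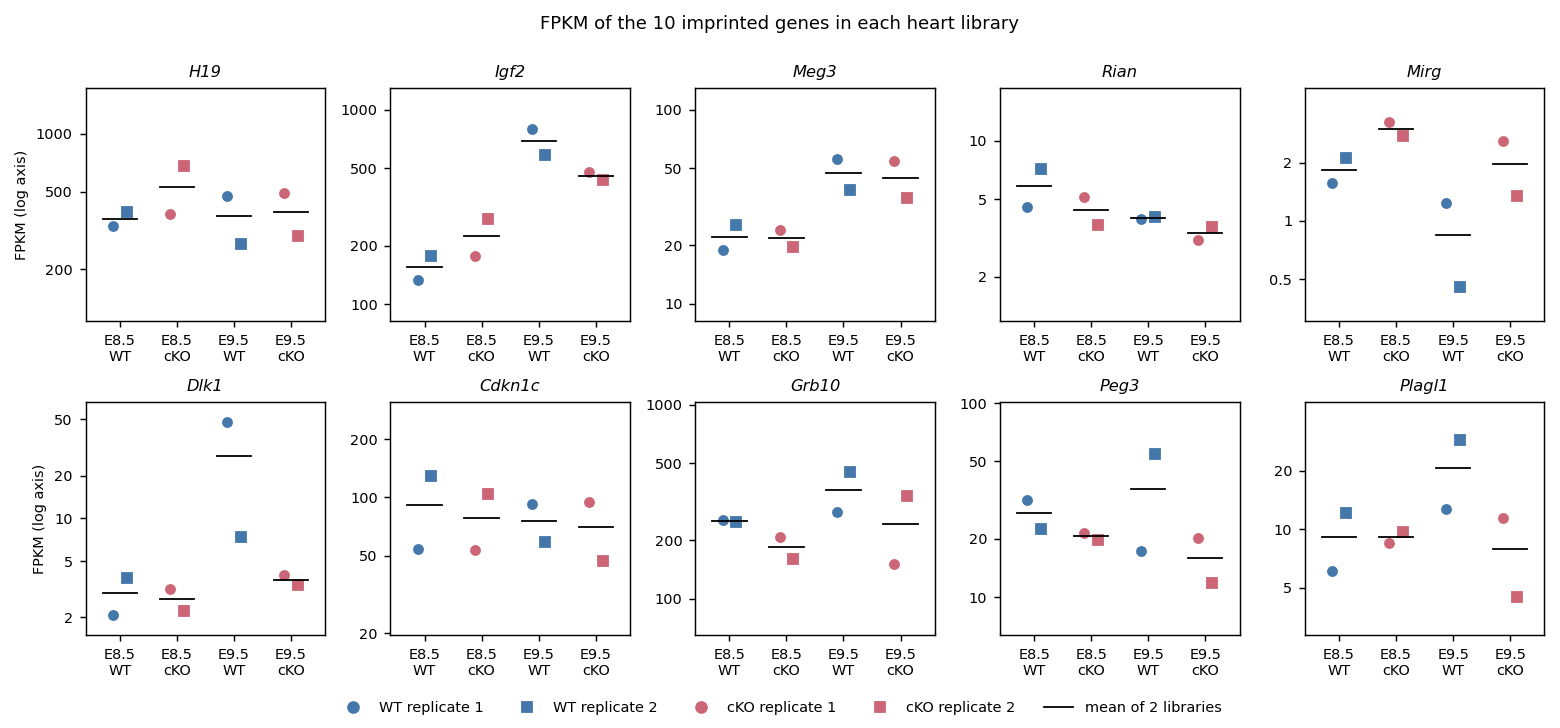
FPKM of each gene (log axis) in the 8 heart libraries, grouped by stage and genotype, with circles for replicate 1, squares for replicate 2 and a bar at the mean of the 2 libraries. Igf2 and Meg3 are higher in all 4 E9.5 libraries than in all 4 E8.5 libraries, and Mirg is higher in cKO than in WT libraries at each stage.

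Mirg, the lncRNA that carries miR-541, was the 1 gene of the 10 that stood higher in both cKO libraries than in both WT libraries at both stages. At E8.5, Mirg was at 1.56 and 2.101 FPKM (WT) and 3.24 and 2.75 FPKM (cKO). The E9.5 values were 1.24 and 0.454 FPKM (WT) and 2.57 and 1.35 FPKM (cKO). The cKO mean was 1.64 times the WT mean at E8.5 and 2.31 times at E9.5. Among all tested genes, 0.838% were above WT without overlap at both stages, and 18.3% were below, with none of the 10 genes among the latter. With median-ratio scaling between libraries these shares were 4.39% and 5.32%, and Mirg was again the 1 gene of the 10 above. Differences were tested in limma over all 10018 genes, and a gene is termed called where the adjusted p was under 0.05 and the difference 1.5-fold or more. Mirg was not called. On the log2(FPKM + 1) scale it was 0.50 (SE 0.31, adjusted p = 0.602) at E8.5 and 0.68 (SE 0.31, adjusted p = 0.337) at E9.5. Averaged over the stages it was 0.59 (SE 0.22, adjusted p = 0.212). The median gene differed by -0.28 at E8.5 and by -0.070 at E9.5, and with median-ratio scaling Mirg differed by 0.67 and 0.84. With single libraries left out, its difference ranged from 0.36 (without E8.5 WT replicate 1) to 0.64 (without E8.5 WT replicate 2) at E8.5, and from 0.37 (without E9.5 WT replicate 2) to 0.99 (without E9.5 WT replicate 1) at E9.5.

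Meg3 is the lncRNA at the start of the same noncoding series. Its E8.5 values were 18.8 and 25.6 FPKM (WT) and 23.9 and 19.6 FPKM (cKO). Its E9.5 values were 55.9 and 38.6 FPKM (WT) and 54.3 and 34.97 FPKM (cKO). The genotypes overlapped at both stages, and the cKO minus WT difference was -0.019 (SE 0.33) at E8.5 and -0.090 (SE 0.33) at E9.5 on the log2 scale. Scaling turned the sign of both, to 0.32 and 0.026 with median ratios. Between the stages Meg3 rose. In WT hearts the E9.5 mean was 2.13 times the E8.5 mean (log2 difference 1.05, SE 0.33, adjusted p = 0.0344 by limma). In cKO hearts it was 2.05 times (log2 difference 0.98, SE 0.33, adjusted p = 0.0555), just short of the threshold, and past it after median-ratio scaling (adjusted p = 0.0240) or quantile normalization (adjusted p = 0.0386), in a range of 0.0240 to 0.240 over all alternatives. The rise in WT lost its call without any 1 of the 4 WT libraries, with adjusted p of 0.0547 to 0.179, and with no filter on low genes.

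Rian, which lies between them and holds miR-370 and small nucleolar RNA genes, stood at 4.59 and 7.15 FPKM (WT) and 5.13 and 3.68 FPKM (cKO) at E8.5. A day later it stood at 3.97 and 4.06 FPKM (WT) and 3.09 and 3.59 FPKM (cKO). The E9.5 cKO libraries were both below the WT libraries, but the log2 difference was -0.21 (SE 0.27, adjusted p = 0.783), and after median-ratio scaling the groups overlapped. Its FPKM was lower at the later stage in both genotypes, by a log2 difference of -0.43 (SE 0.27) in WT and -0.31 (SE 0.27) in cKO, while the median gene was lower by -0.84 and -0.64. With median-ratio scaling both Rian differences were positive, at 0.39 and 0.30, so no direction can be given.

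The balance of these lncRNAs was compared within each library, where a scaling factor cancels (plot of ratios). At E8.5, Mirg stood at 8.28% and 8.22% of Meg3 FPKM in WT and at 13.6% and 14.0% in cKO. The E9.5 ratios were 2.22% and 1.18% in WT and 4.74% and 3.85% in cKO. The ratio was thus higher in cKO at both stages without overlap. Averaged over the stages, it was 1.99 times that of WT (log2 difference 0.996, SE 0.20). It was 0.71 at E8.5 and 1.28 at E9.5 on the log2 scale. An exact two-sided permutation test of genotype within stage gave p = 0.0556, the smallest that its 36 arrangements allow, and an adjusted p of 0.167 over the 3 ratios. This permutation test could therefore not reach 0.05. Leaving out any 1 library kept the log2 difference between 0.81 and 1.18.

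Rian stood at 24.4% and 28.0% (WT) and 21.5% and 18.8% (cKO) of Meg3 FPKM at E8.5. The E9.5 ratios were 7.10% and 10.5% (WT) and 5.69% and 10.3% (cKO). The cKO minus WT log2 difference was -0.27 (SE 0.26, exact permutation p = 0.278, adjusted p = 0.333 over the 3 ratios), with overlapping groups at E9.5. Both ratios were lower in all 4 E9.5 libraries than in all 4 E8.5 libraries, a stage difference for which no test was planned. Relative to Meg3, Mirg went from 8.22% to 14.0% at E8.5 to 1.18% to 4.74% at E9.5.

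**Figure D2:**
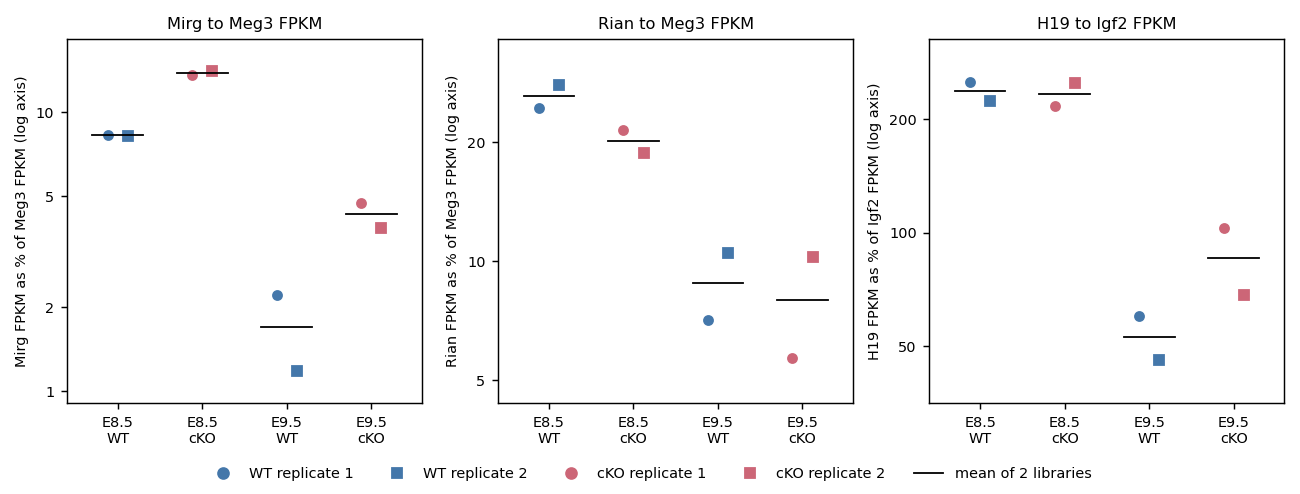
FPKM of Mirg and Rian as a percentage of Meg3 FPKM, and of H19 as a percentage of Igf2 FPKM (log axes), in the 8 libraries, with a bar at the mean of the 2 libraries of a group. The Mirg ratio separates cKO from WT at both stages, the Rian ratio does not at E9.5, and all 3 ratios are lower at E9.5.

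Other transcripts of the interval were read too, and 6430411K18Rik was chosen after its values were seen. Rtl1, a paternally expressed retrotransposon-derived gene, is covered by maternal antisense transcripts that hold miRNAs directed at it. The transcript 6430411K18Rik (chr12:109591537-109592851) lies within the Rtl1 span. The E8.5 libraries held 0.128 and 0.188 FPKM of it (WT) against 1.18 and 1.26 FPKM (cKO). The E9.5 libraries held 0.232 and 0.179 FPKM (WT) against 1.48 and 0.639 FPKM (cKO). The cKO libraries were above the WT libraries at both stages, but its mean of 0.660 FPKM kept it out of the tested genes. In the limma fit without a filter, the mean difference over the stages was 0.84 (SE 0.14, adjusted p = 0.204). Rtl1 itself was at 0.301, 0.175, 0.371 and 0.227 FPKM in the WT libraries and at 0.936, 0.496, 0.640 and 0.261 FPKM in the cKO libraries, in the order of E8.5 and then E9.5. The genotypes overlapped at E9.5, and the log2 difference of Rtl1 over the stages was 0.30 (SE 0.13, adjusted p = 0.376). Since strand use is not stated, the reads of Rtl1 and of 6430411K18Rik cannot be told apart where they overlap.

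**Figure D3:**
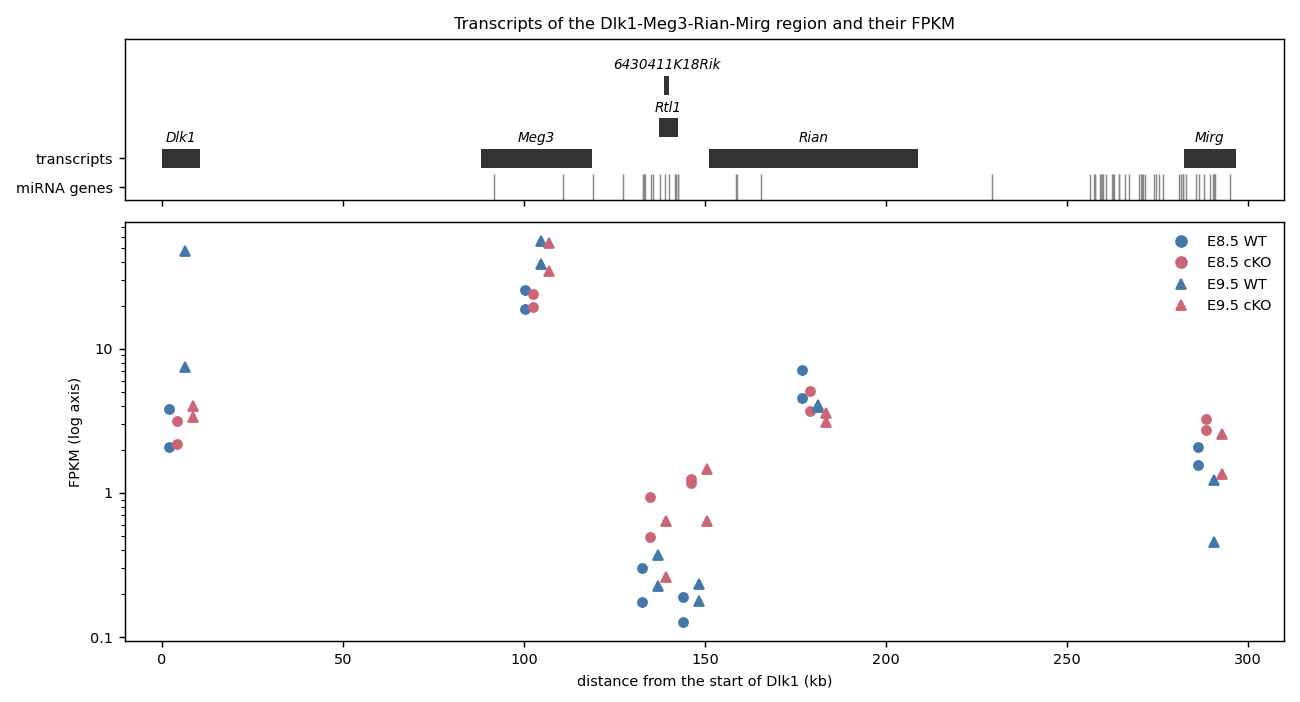
Transcripts of the domain drawn to scale by distance from the start of Dlk1 in kb, with grey ticks at miRNA genes (top), and FPKM (log axis) of each in the 8 libraries (bottom, circles E8.5, triangles E9.5, blue WT, red cKO, spread sideways for visibility). Mirg and 6430411K18Rik are higher in cKO at both stages, Meg3 is higher at E9.5 than at E8.5, and Dlk1 is highest in 1 E9.5 WT library at 47.7 FPKM.

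For comparison, the hosts of miRNAs outside imprinted domains were listed from general knowledge. Of 9 listed, 7 were in the table and 3 passed the filter. Mir17hg, which carries the miR-17 to miR-92a cluster, stood at 1.08 and 1.31 FPKM (WT) against 18.2 and 21.7 (cKO) at E8.5, and at 0.241 and 0.768 (WT) against 11.3 and 10.9 (cKO) at E9.5. It rose in cKO at both stages by limma, by a log2 difference of 3.25 (SE 0.26, adjusted p = 0.0146) at E8.5 and 3.03 (SE 0.26, adjusted p = 0.00828) at E9.5. Mir22hg rose at E9.5 by 1.93 (SE 0.23, adjusted p = 0.0234), while its 1.88 at E8.5 had an adjusted p of 0.0991. Mir143hg was not called at either stage (-0.27, SE 0.28, adjusted p = 0.713 at E8.5 and 0.93, SE 0.28, adjusted p = 0.178 at E9.5). On the same scale Mirg differed by 0.50 at E8.5 and 0.68 at E9.5, and Meg3 and Rian by -0.33 to -0.019. This scale understates changes of low genes. Mirg, at 0.454 to 3.24 FPKM, was low in all libraries, and Mir17hg, at 0.241 to 1.31 FPKM, in WT. The ratio of group means of Mirg, cKO over WT, was 1.64 at E8.5 and 2.31 at E9.5.

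Igf2, which encodes the growth factor insulin-like growth factor 2 and also holds miR-483, was the 1 gene of the 10 called between the stages in both genotypes. It stood at 133 and 177 FPKM (WT) and 176 and 274 FPKM (cKO) at E8.5. The later hearts had 795 and 589 FPKM (WT) and 478 and 436 FPKM (cKO). All E9.5 libraries were above all E8.5 libraries, and at E9.5 both cKO libraries were below both WT libraries. Igf2 rose 4.47-fold in WT hearts (group means, log2 difference 2.15, SE 0.31, adjusted p = 0.0109 by limma) and 2.03-fold in cKO hearts (log2 difference 1.05, SE 0.31, adjusted p = 0.0407). The call in WT was lost without E8.5 WT replicate 1 (adjusted p = 0.0871) or E9.5 WT replicate 1 (adjusted p = 0.0551), in a range of 0.00504 to 0.0871 over the alternatives. The call in cKO was less firm: it stood in 5 of 14 alternatives, with adjusted p of 0.0290 to 0.135. It was lost without E8.5 WT replicate 1 or 2, E8.5 cKO replicate 1, or E9.5 cKO replicate 1 or 2. It was also lost with no filter on low genes (adjusted p = 0.0783), quantile normalization (0.0829), only the libraries of that comparison (0.0941) or the replicate number as a block (0.0535).

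The cKO minus WT difference of Igf2 was positive at E8.5 and negative at E9.5, and neither passed the test. On the log2 scale it was 0.52 (SE 0.31, adjusted p = 0.601) and -0.58 (SE 0.31, adjusted p = 0.417). The difference between these effects was -1.10 (SE 0.44, adjusted p = 0.693), so a stage-dependent effect was not shown once all genes were considered. Yolk sac endoderm markers moved with Igf2 between the WT stages: their sum went from 829 and 2912 FPKM at E8.5 to 7562 and 5397 FPKM at E9.5, and Afp and Trf were called higher (2 of 9 markers). At E8.5 the cKO sums were 7602 and 2134 FPKM, where Igf2 stood at 176 and 274 FPKM. In cKO, where Igf2 also rose, no endoderm marker was called between stages. Of the 8 cardiomyocyte markers, 4 were called higher between the WT stages (Actc1, Myh6, Myh7 and Myl4) and 3 between the cKO stages (all but Myh6). With median-ratio scaling 6 were called higher in WT and 3 in cKO, and with quantile normalization none in either. The epicardial marker Upk3b and the embryonic globin gene Hbb-y were called higher in both genotypes, while 4 of the 8 erythroid markers were called lower in WT. Of all tested genes, 1.4% were called higher and 46.7% lower between WT stages, and 2.05% and 28.5% between cKO stages. No erythroid marker was called between stages after median-ratio scaling, and no endoderm marker with quantile normalization. The erythroid sums were 9788 and 28163 FPKM (WT) and 39605 and 16613 FPKM (cKO) at E8.5, and 16365 and 34096 FPKM (WT) and 44970 and 33240 FPKM (cKO) at E9.5. The part of these tissues in the Igf2 level was not tested.

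H19, the lncRNA that shares enhancers with Igf2 and hosts miR-675, was at 334 and 395 FPKM (WT) and 384 and 683 FPKM (cKO) in the E8.5 libraries. In the E9.5 libraries it was at 477 and 271 FPKM (WT) and 493 and 298 FPKM (cKO). The groups overlapped in each of these comparisons of genotype or stage. The cKO minus WT log2 difference was 0.49 (SE 0.41, adjusted p = 0.659) at E8.5 and 0.091 (SE 0.41, adjusted p = 0.959) at E9.5. Between stages its FPKM differed by -0.015 (SE 0.41) in WT, and by 0.98 after median-ratio scaling. Within E8.5 libraries, H19 stood at 251% and 224% (WT) and 218% and 249% (cKO) of Igf2 FPKM. Within E9.5 libraries it stood at 60.1% and 46.0% (WT) and 103% and 68.3% (cKO). H19 thus exceeded Igf2 in all 4 E8.5 libraries and in 1 of the 4 E9.5 libraries. The E9.5 cKO ratios were both above the WT ratios (log2 difference 0.68), while the E8.5 groups overlapped (-0.024), and the mean over the stages was 0.33 (SE 0.19, exact permutation p = 0.333, adjusted p = 0.333).

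Dlk1, a paternally expressed transmembrane relative of the Notch ligands, rested on 1 library. The 2 E8.5 WT libraries held 2.096 and 3.82 FPKM, the E8.5 cKO libraries 3.18 and 2.204 FPKM, and the E9.5 cKO libraries 4.002 and 3.38 FPKM. E9.5 WT replicates 1 and 2 held 47.7 and 7.45 FPKM. These 2 replicates differed 6.41-fold. The rise in WT was called (9.32-fold in group means, log2 difference 2.39, SE 0.70, adjusted p = 0.0275 by limma), but without E9.5 WT replicate 1 it was 1.13 (adjusted p = 0.0752, in a range of 0.0118 to 0.128 over the alternatives). The call was also lost without E8.5 WT replicate 1 or 2, or E9.5 cKO replicate 1 or 2, with no filter on low genes (adjusted p = 0.0730), with quantile normalization (adjusted p = 0.0781) and with only the libraries of that comparison (adjusted p = 0.0624). At E9.5 both cKO libraries were below both WT libraries (log2 difference -2.12, SE 0.70, adjusted p = 0.209). Without E9.5 WT replicate 2 this difference was -3.38 and was called (adjusted p = 0.0360), and without replicate 1 it was -0.85 (adjusted p = 0.361), in a range of 0.0360 to 0.799 over the libraries left out. The 4 proepicardial and epicardial markers summed to 34.1 FPKM in E9.5 WT replicate 1, 18.8 in replicate 2, and 9.09 and 8.69 in the E9.5 cKO libraries. They were thus in the same order as Dlk1 at this stage, and their part in the result was not tested.

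Cdkn1c and Grb10 restrain growth: the former encodes the cyclin-dependent kinase inhibitor p57, the latter an adaptor that dampens insulin and insulin-like growth factor signalling. Cdkn1c was at 54.3 and 129 FPKM (WT) and 53.3 and 104 FPKM (cKO) in E8.5 hearts. It was at 92.0 and 58.9 FPKM (WT) and 94.2 and 47.0 FPKM (cKO) in E9.5 hearts. Replicates differed by 1.56-fold to 2.01-fold in 3 of the groups and by more in E8.5 WT, while the ratios of compared group means lay between 0.822 and 0.936, and no direction was stable. The cKO minus WT log2 difference was -0.17 (SE 0.54) at E8.5 and -0.14 (SE 0.54) at E9.5. Leaving out single libraries moved these between -0.79 and 0.45 and between -0.64 and 0.35.

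Grb10 was at 255 and 249 FPKM (WT) and 208 and 160 FPKM (cKO) at E8.5. Its E9.5 levels were 280 and 448 FPKM (WT) and 150 and 338 FPKM (cKO). Both E8.5 cKO libraries were below the WT libraries, with a log2 difference of -0.46 (SE 0.42, adjusted p = 0.679), while the E9.5 groups overlapped (-0.65, SE 0.42, adjusted p = 0.511). The E9.5 value rested on the cKO libraries, at -1.23 without replicate 2 and -0.068 without replicate 1. After median-ratio scaling the E8.5 difference was -0.11. The E9.5 minus E8.5 difference of Grb10 was 0.49 (SE 0.42) in WT and 0.30 (SE 0.42) in cKO, and neither was called.

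Peg3 and Plagl1 encode zinc finger proteins, and Plagl1 is known as a regulator of other imprinted genes. At E9.5 both were highest in WT replicate 2. Peg3 was at 31.6 and 22.5 FPKM (WT) and 21.4 and 19.8 FPKM (cKO) at E8.5, and at 17.3 and 54.6 FPKM (WT) and 20.1 and 11.8 FPKM (cKO) at E9.5. Plagl1 was at 6.10 and 12.2 FPKM (WT) and 8.55 and 9.63 FPKM (cKO) at E8.5, and at 12.7 and 28.9 FPKM (WT) and 11.4 and 4.47 FPKM (cKO) at E9.5. For Peg3 the E9.5 genotypes overlapped (log2 difference -0.95, SE 0.51, adjusted p = 0.413), and the difference was -0.15 without WT replicate 2 and -1.76 without WT replicate 1. For Plagl1 both cKO libraries were below both WT libraries at E9.5 (-1.30, SE 0.52, adjusted p = 0.284), and the difference was -1.89 without cKO replicate 1 and -0.71 without cKO replicate 2, the extremes over single libraries left out. Dlk1 was highest in E9.5 WT replicate 1 and Peg3, Plagl1 and Grb10 in replicate 2. On the log2(FPKM + 1) scale, 7 of the 10 genes in E9.5 WT differed at least 1.5-fold between replicates, and in E9.5 cKO also 7, against 19.6% and 16.5% of all tested genes. In E8.5 WT and E8.5 cKO it was 3 each, against 13.6% and 38.5%.

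In limma none of the 10 genes was called (plot of log2 differences) between cKO and WT at E9.5, where 0.18% of all tested genes were called, or at E8.5, where 0.00998% were. Before adjustment, at p under 0.05, there were 2 at E9.5, Dlk1 and Plagl1, and 0 at E8.5, where 15.7% and 7.81% of all tested genes were. None was called for the mean of the stages (0.0399% of genes) or for the difference of the cKO effect between stages (0.0399%), each with 1 gene under 0.05 before adjustment, Mirg and Igf2, beside 18.8% and 7.18% of all tested genes. At E9.5, both cKO libraries were above both WT libraries for Mirg (21% of all tested genes) and below for Igf2, Rian, Dlk1 and Plagl1 (31.1%). At E8.5, they were above for Mirg (2.54%) and below for Grb10 and Peg3 (40.1%). With median-ratio scaling, the E9.5 cKO libraries were above for Mirg (27.5%) and below for Igf2, Dlk1 and Plagl1 (24%), and the E8.5 cKO libraries were above for H19, Igf2, Meg3 and Mirg (13.3%) and below for Grb10 (12.5%). The median log2 difference of the 10 genes was -0.40 at E9.5 and -0.049 at E8.5, beside -0.070 and -0.28 for all tested genes. The sign at E8.5 turned with scaling, to 0.25 with median ratios and 0.23 with quantile normalization.

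**Figure D4:**
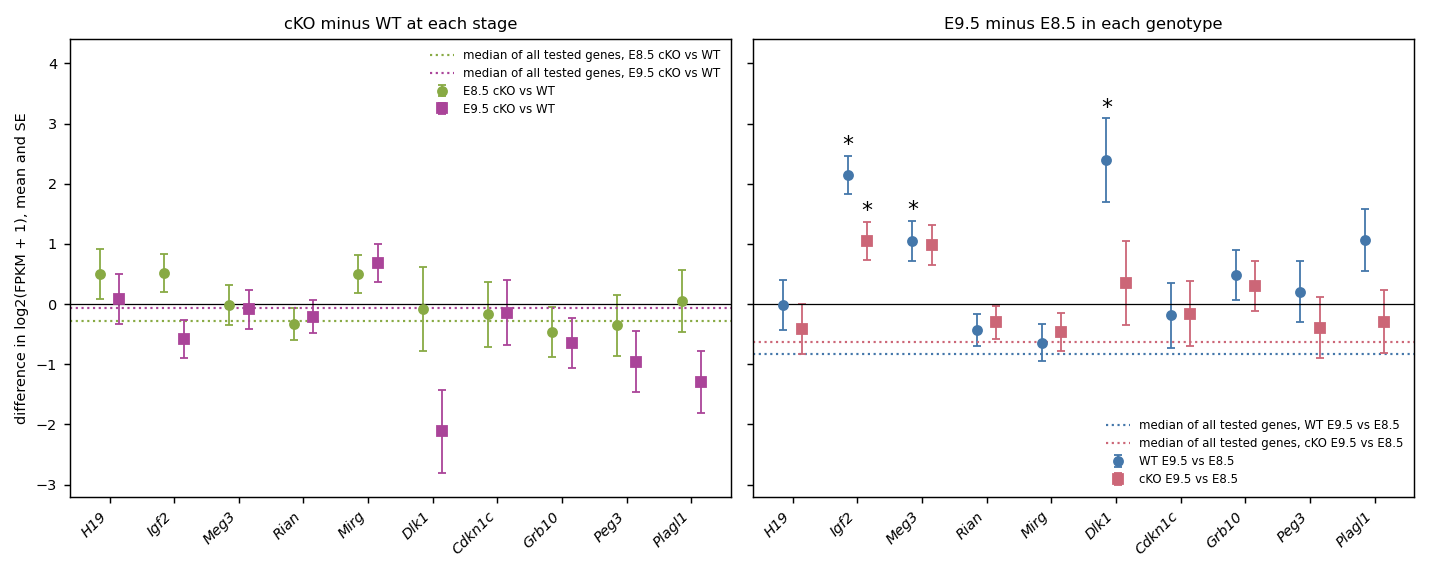
Difference in log2(FPKM + 1) with its SE for each gene, cKO minus WT (left, circles E8.5, squares E9.5) and E9.5 minus E8.5 (right, circles WT, squares cKO). Dotted lines mark the median of all tested genes and stars mark called genes, which are Igf2, Meg3 and Dlk1 in WT and Igf2 in cKO, all between the stages.

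The stages were compared within each genotype, on the same libraries. Between them, 3 of the 10 genes were called in WT, Igf2, Meg3 and Dlk1, all higher, where 48.1% of all tested genes were called. Those calls were 140 of higher and 4683 of lower FPKM. In cKO 1 was called, Igf2, where 30.6% were called, with 205 higher and 2857 lower. Without overlap of libraries, 5 of the 10 genes were higher at E9.5 in WT (5.43% of all tested genes), namely Igf2, Meg3, Dlk1, Grb10 and Plagl1. Rian and Mirg were lower (80.1%). In cKO, Igf2, Meg3 and Dlk1 were higher (7.05%) and Rian and Mirg lower (62.7%). With median-ratio scaling, 8 of the 10 were higher in WT (29.4%) and 6 in cKO (27.2%), and none was lower in either. Since the median gene was lower by 0.84 in WT and 0.64 in cKO on the log2 scale, the median of the 10 genes, 0.35 in WT and -0.23 in cKO, stood 1.18 and 0.41 above it, and all 10 genes were above it in both genotypes. With median-ratio scaling 9 of 10 in WT and 10 in cKO were above the median gene, and with quantile normalization 9 in each.

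The scaling between stages therefore decided several signs (plot of stage differences by scaling). With median-ratio scaling, called genes split into 321 higher and 69 lower in WT and 400 higher and 77 lower in cKO, in place of mostly lower calls. Igf2, Meg3 and Dlk1 remained called in WT (log2 differences 3.14, 2.01 and 3.17), and Igf2 and Meg3 were called in cKO (1.81 and 1.71). The FPKM differences of Rian, Cdkn1c and H19 in WT turned positive, and so did those of Rian, Mirg, Cdkn1c, H19, Peg3 and Plagl1 in cKO. Mirg in WT was at -0.099. The rise of Igf2, Meg3 and Dlk1 in WT held its direction under each scaling, although Dlk1 lost its call under quantile normalization (3.14, adjusted p = 0.0781), as did Igf2 in cKO (1.23, adjusted p = 0.0829).

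**Figure D5:**
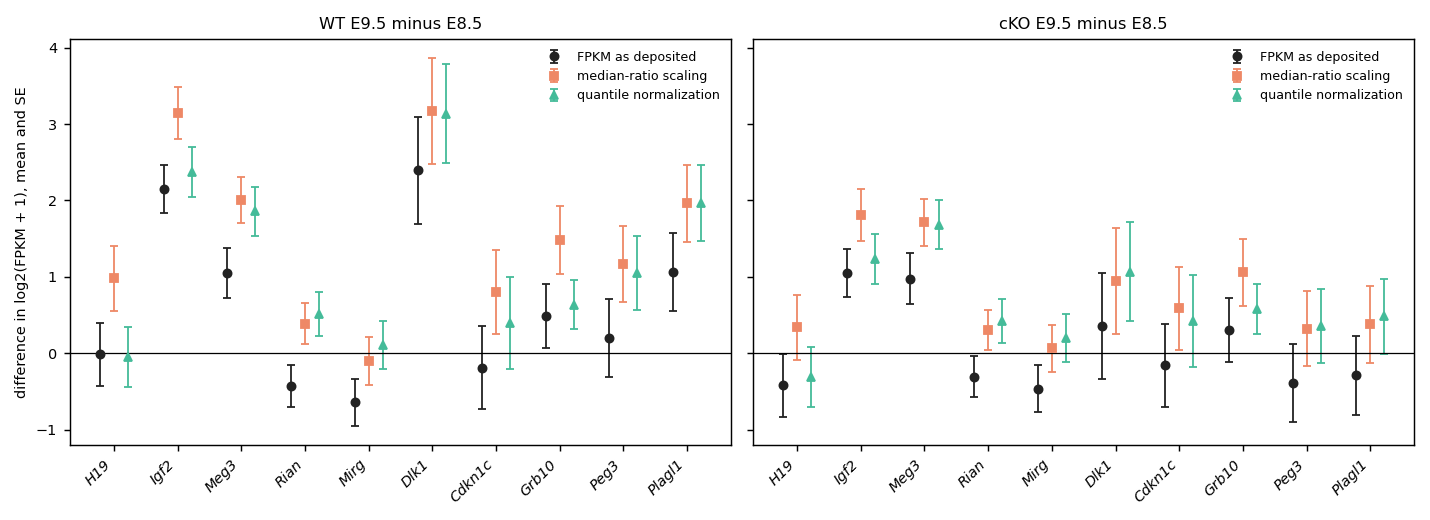
Difference in log2(FPKM + 1) between E9.5 and E8.5 with its SE for each gene in WT (left) and cKO (right), from FPKM as deposited (circles), after median-ratio scaling (squares) and after quantile normalization (triangles). Igf2 and Meg3 lie above 0 under all 3, while Rian changes sign in both genotypes.

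Other members of these pathways were taken from fixed lists of general knowledge. Of 18 genes of the insulin-like growth factor axis, 14 were tested. None was called between genotypes by limma, with 4 at E9.5 and 1 at E8.5 before adjustment. Counts before adjustment here and in the lists that follow are of genes at p under 0.05 and 1.5-fold or more. Among all 10018 tested genes these were 1510 at E9.5 and 715 at E8.5. The list median was -0.043 at E9.5 and -0.31 at E8.5, or 0.0032 at E8.5 with median-ratio scaling. In WT, 1 rose and 6 fell between stages, and in cKO 0 rose and 3 fell. Among all tested genes, 1.4% were called higher and 46.7% lower in WT, and 2.05% and 28.5% in cKO, so falls on the FPKM scale were common outside this list and the lists that follow. Igfbp4, a binding protein that sequesters the growth factors, rose 0.94 (SE 0.29, adjusted p = 0.0336) in WT, and it was at 326 and 258 FPKM in E9.5 WT against 158 and 163 FPKM in E9.5 cKO (log2 difference -0.85, SE 0.29, adjusted p = 0.227). Igf1, the sister ligand, fell by 1.25 (SE 0.23, adjusted p = 0.0123) in WT and by 1.07 (SE 0.23, adjusted p = 0.0186) in cKO, and its mean was 1.66 FPKM. Igf1r, the receptor, fell by 0.81 (SE 0.27, adjusted p = 0.0417) in WT. After median-ratio scaling, no gene of the list was called lower between the stages, while Igf2r, Igfbp4 and Igfbp5 were called higher in WT and Igf2r and Igfbp3 in cKO.

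Igf2bp3, an RNA-binding protein that binds Igf2 messages, fell by 1.18 (SE 0.29, adjusted p = 0.0185) in WT and by 1.83 (SE 0.29, adjusted p = 0.0160) in cKO. Its E9.5 cKO libraries, at 9.37 and 11.1 FPKM, were below the WT libraries, at 19.5 and 29.9 FPKM (log2 difference -1.17, SE 0.29, adjusted p = 0.134). Its relative Igf2bp2 fell in cKO by 1.15 (SE 0.24, adjusted p = 0.0179), and Igf2bp1, the second most abundant gene of the list at 60.4 FPKM, was not called. The binding proteins Igfbp3 and Igfbp6 and the receptor substrate Irs1 fell in WT, by 1.58 (SE 0.26), 1.78 (SE 0.58) and 1.02 (SE 0.29). Igfbp6 was at 7.21 FPKM in E8.5 WT replicate 1, the library with the uterine natural killer markers, and at 0.108 to 0.903 FPKM in the other 7. Igfbp3 was at 1.70 and 1.38 FPKM in E9.5 WT and at 6.52 and 6.39 FPKM in E9.5 cKO (log2 difference 1.56, SE 0.26, adjusted p = 0.0768). It was called there after median-ratio scaling.

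Of 22 other paternally expressed imprinted genes, 15 were tested and none was called between genotypes (2 at E9.5 and 0 at E8.5 unadjusted). The list median was -0.22 at E9.5 and -0.47 at E8.5, or -0.12 at E8.5 with median-ratio scaling. Mest, a hydrolase-like protein of mesoderm, was by far the most abundant, at 1092 and 1646 FPKM (WT) and 1062 and 1721 FPKM (cKO) at E8.5, and at 2759 and 4215 FPKM (WT) and 1104 and 2160 FPKM (cKO) at E9.5. It rose between stages in WT (log2 difference 1.35, SE 0.42, adjusted p = 0.0340) and was not called in cKO (0.19, SE 0.42, adjusted p = 0.739). At E9.5 both cKO libraries were below both WT libraries (-1.14, SE 0.42, adjusted p = 0.248). Nnat, at a mean of 136 FPKM, was not called. Dio3, Impact, Inpp5f, Mcts2, Sgce and Snrpn fell in WT and Impact, Inpp5f, Mcts2, Sfmbt2 and Snrpn fell in cKO, by 0.72 to 1.94 on the log2 scale. These were 6 and 5 of the 15, beside 46.7% and 28.5% of all tested genes, and none of them was called after median-ratio scaling. In the 3 E8.5 libraries with decidual and trophoblast markers, Dio3 was at 6.41, 2.22 and 4.90 FPKM, against 0.440 in the fourth, E8.5 cKO replicate 1. Sfmbt2 was at 0.965, 1.43 and 5.37 FPKM in those 3 and at 1.23 in the fourth, within their range. The part of these tissues in the falls was not tested.

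Of 12 other maternally expressed imprinted genes, 9 were tested and none was called between genotypes (3 at E9.5 and 1 at E8.5 unadjusted). The list median was 0.51 at E9.5 and -0.18 at E8.5, or 0.091 at E8.5 with median-ratio scaling. Phlda2, which restrains placental growth, was at 273 and 434 FPKM (WT) and 634 and 570 FPKM (cKO) at E8.5, and at 135 and 86.3 FPKM (WT) and 229 and 214 FPKM (cKO) at E9.5. Like Mirg, it was above WT in cKO without overlap at both stages (log2 difference over the stages 0.92, SE 0.23, adjusted p = 0.146), and it fell between stages in both genotypes, by 1.66 (SE 0.33, adjusted p = 0.0133) and 1.44 (SE 0.33, adjusted p = 0.0215). Asb4, an ankyrin repeat protein of vascular and placental cells, fell between stages in cKO by 2.01 (SE 0.36, adjusted p = 0.0161). It was at 6.01 and 4.95 FPKM in E9.5 cKO and at 37.8 and 18.1 FPKM in E9.5 WT (log2 difference -2.07, SE 0.36, adjusted p = 0.0850). Ascl2, H13 and Tssc4 fell in WT, by 1.39 (SE 0.40), 1.02 (SE 0.29) and 0.93 (SE 0.32). None of these falls was called after median-ratio scaling.

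Among 6 other cyclin-dependent kinase inhibitors, 3 were tested and none was called between genotypes (1 at each stage before adjustment). Cdkn1a, the p21 gene, was at 12.7 and 5.72 FPKM (WT) and 8.13 and 7.94 FPKM (cKO) at E8.5, and at 4.19 and 4.35 FPKM (WT) and 24.6 and 24.4 FPKM (cKO) at E9.5. The E9.5 cKO libraries stood above the other 6, the highest of which was E8.5 WT replicate 1 at 12.7 FPKM. Cdkn1a rose between stages in cKO (log2 difference 1.497, SE 0.34, adjusted p = 0.0210 by limma). The E9.5 difference between genotypes of 2.28 (SE 0.34) had an adjusted p of 0.0648 and was called after median-ratio scaling or quantile normalization. Cdkn2d fell in WT between stages by 1.21 (SE 0.33, adjusted p = 0.0237). Of the 3 other adaptors of the Grb family, none was called between genotypes (0 unadjusted at either stage). Grb2, the common adaptor of receptor tyrosine kinases, fell between stages in WT by 1.49 (SE 0.24, adjusted p = 0.0117) and in cKO by 1.67 (SE 0.24, adjusted p = 0.0160), and Grb14, at a mean of 15.4 FPKM, was not called.

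Among 10 genes that comprised factors setting or keeping imprints and the Plagl1 relatives Plag1 and Plagl2, 7 were tested, and none was called between genotypes (1 at each stage unadjusted). Dppa3 was listed at 0 in all libraries. The zinc finger proteins Ctcf, Zfp57 and Zfp445 and the corepressor Trim28 fell in WT, by 1.46 (SE 0.24), 0.83 (SE 0.26), 1.08 (SE 0.38) and 1.61 (SE 0.41), beside -0.84 for the median gene. Ctcf and Plagl2 fell in cKO by 1.08 (SE 0.24) and 0.99 (SE 0.25), beside -0.64. None of these, nor the falls of Cdkn2d and Grb2, was called after median-ratio scaling. Dnmt1, the maintenance methyltransferase, was at a mean of 20.5 FPKM and was not called.

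The genes whose profile over the 8 libraries was most like that of 4 of the genes are given as a description, by Pearson's r of log2(FPKM + 1) after each library was centred on its median. The points share libraries and the stage difference. For Igf2 they were Hist2h3c2, Cox7c and Nfic (r of 0.992 to 0.991), for Meg3 Pkmyt1, L3hypdh and Fam65a (0.992 to 0.989), and for H19 Lars2, Sfswap and Irf2bpl (0.975 to 0.965). For Dlk1 they were Mrpl52, Actn3 and 2700094K13Rik (0.992 to 0.972), in a profile set by 1 library.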

How the data were processed

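RNA of 8 mouse heart samples, 2 independent biological replicates for each stage and genotype, had been sequenced after Smart-seq amplification. The submitters' processing notes name BWA and mm9. The FPKM values were calculated and deposited by the authors, and the program that made them, and any use of strand, are not given in the sources used here. Gene positions in the table matched GRCm38, with 91.7% of 9515 starts within 1000 bp (5.07% of 9257 for NCBIM37), so GRCm38 coordinates are given. The table held 24930 entries in 8 value columns, of which 24385 features remained once each of 285 repeated symbols was reduced to its most abundant entry (27 date-like symbols were told apart by position). Reads per gene were not analysed here, so absolute depth is unknown and no counting interval is given.

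The 10018 genes whose mean reached 1 FPKM were tested with limma 3.58.1 (trend, two-sided; R 4.3.3) on log2(FPKM + 1), which understates changes of low genes, in 1 model of the 4 groups. P-values were adjusted by Benjamini-Hochberg over all tested genes. Calls required a difference of 1.5-fold or more and a value under 0.05 after adjustment. Ratios used log2(FPKM + 0.1) and exact two-sided permutation of genotype within stage. The scripts were tested on simulated data. Alternatives were a pseudocount of 0.1 (1 for ratios), no filter, median-ratio scaling, quantile normalization, the libraries of a comparison only, a replicate block, and leaving out each library. The genes named are the 10 imprinted genes, the called genes and the 2 most abundant genes of each pathway list, and the genes most like 4 of the 10. The members, lists and tests were chosen with earlier results of these data known. Tables and figures were made with Python 3.11.15, pandas 2.3.3 and matplotlib 3.10.9.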

Additional observations from a re-analysis of the deposited data

How the results depend on the processing

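With 2 libraries a group, unknown depth and amplified RNA, differences under about the spread of replicates could not be shown, and leaving a library out assumes that the lone one varies like the other groups. The number of genes called moved widely. At E9.5, 18 genes were called between genotypes, against 5 with no filter, 56 with median-ratio scaling, 31 with quantile normalization, 0 with the comparison's libraries only (1903 at an unadjusted p under 0.05 in limma), and 1 to 87 with a library left out. At E8.5, 1 was called, against 0 with a pseudocount of 0.1, 0 with no filter (624 and 1681 at an unadjusted p under 0.05), 3 with quantile normalization, and 0 to 50 with a library left out. Between WT stages, 4823 became 390 with median-ratio scaling, 115 with quantile normalization (88 higher, 27 lower) and 32 to 6035 with a library left out. Between cKO stages, 3062 became 1188 with no filter, 477 with median-ratio scaling, 307 with quantile normalization (258 higher, 49 lower), 1518 with the comparison's libraries only, and 1 to 3157 with a library left out. For the mean of the stages, 4 became 2 with no filter, 9 with median-ratio scaling, 8 with quantile normalization, 2 with the replicate block, and 1 to 47 with a library left out. Of the 10 imprinted genes, those called between WT stages were 3, against 1 with no filter, 2 with quantile normalization, 2 with the comparison's libraries only, and 0 to 3 with a library left out. Those called between cKO stages were 1, against 0 with no filter, 2 with median-ratio scaling, 0 with the comparison's libraries only, 0 with the replicate block, and 0 to 1 with a library left out. At E9.5 between genotypes they were 0 to 1 with a library left out. For the difference of the cKO effect between stages, 4 of all tested genes were called, against 2 with a pseudocount of 0.1. There were 0 with no filter, with quantile normalization or with the replicate block. The cause of these shifts was not tested. With a pseudocount of 0.1, the direction and call of all 60 differences of the 10 genes (10 genes in 6 comparisons) stayed as reported. The 3 ratios kept their direction under each alternative run. Their ranges with a library left out were 0.81 to 1.18 (Mirg to Meg3), -0.48 to -0.060 (Rian to Meg3) and 0.18 to 0.47 (H19 to Igf2).

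Libraries of equal replicate number were not treated as pairs in the reported fit. Whether they shared an origin is not stated in the sources used here. Correlations of the deviations of equally numbered libraries were -0.0036 (E8.5 genotypes), 0.017 (E9.5 genotypes), -0.12 (WT stages) and -0.046 (cKO stages). With the replicate number as a block, 12, 1, 4668 and 2619 genes were called in these comparisons taken as E9.5 genotypes, E8.5 genotypes, WT stages and cKO stages, and 1 of the 60 differences lost its call, that of Igf2 between cKO stages (adjusted p = 0.0535 in limma). With the WT stages paired crosswise, chosen after seeing the data, 4303 genes were called, 3 of the 10 imprinted genes among them.

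Signs that turned with scaling are given as log2 differences with median-ratio scaling and then quantile normalization. For Cdkn1c they were 0.19 and 0.12 (E8.5 genotypes), 0.80 and 0.40 (WT stages), 0.59 and 0.42 (cKO stages), 0.079 and 0.14 (mean of stages), 0.15 with quantile normalization (E9.5 genotypes) and -0.21 with median ratios (difference between stages). For Meg3 they were 0.32 and 0.34 (E8.5 genotypes), 0.026 and 0.16 (E9.5 genotypes) and 0.17 and 0.25 (mean of stages). For Rian they were 0.39 and 0.51 (WT stages), 0.30 and 0.42 (cKO stages) and -0.087 and -0.096 (difference between stages). For Mirg they were 0.11 with quantile normalization (WT stages) and 0.065 and 0.19 (cKO stages). For Dlk1 they were 0.16 and 0.13 (E8.5 genotypes), for Igf2 0.20 and 0.22 (mean of stages), for Peg3 0.32 and 0.35 and for Plagl1 0.38 and 0.48 (both cKO stages). For H19 they were 0.98 (WT stages) and 0.34 (cKO stages), with median ratios only.

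With a library left out, signs turned within these ranges. Cdkn1c ranged over -0.79 to 0.45 (E8.5 genotypes), -0.64 to 0.35 (E9.5 genotypes), -0.80 to 0.43 (WT stages), -0.65 to 0.34 (cKO stages), -0.46 to 0.15 (mean of stages) and -0.59 to 0.64 (difference between stages). Dlk1 ranged over -0.40 to 0.24 (E8.5 genotypes). Grb10 ranged over -0.28 to 0.88 (cKO stages) and -0.77 to 0.40 (difference between stages). H19 ranged over -0.32 to 0.50 (E9.5 genotypes), -0.42 to 0.39 (WT stages) and -0.82 to 0.012 (difference between stages). Igf2 ranged over -0.19 to 0.12 (mean of stages). Meg3 ranged over -0.23 to 0.19 (E8.5 genotypes), -0.40 to 0.22 (E9.5 genotypes), -0.21 to 0.10 (mean of stages) and -0.38 to 0.24 (difference between stages). Mirg ranged over -0.13 to 0.49 (difference between stages). Peg3 ranged over -0.60 to 1.01 (WT stages) and -1.40 to 0.20 (difference between stages). Plagl1 ranged over -0.39 to 0.51 (E8.5 genotypes) and -0.88 to 0.30 (cKO stages). Rian ranged over -0.15 to 0.40 (difference between stages).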
